A study of Mus musculus with 6 samples.

Results

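The genes described here are 10 members of the antioxidant program controlled by the transcription factor Nrf2: Slc7a11, Gclc, Gclm, Gstm1, Gsta4, Gpx2, Txnrd1, Srxn1, Nqo1 and Hmox1. They are described across the 3 pairs of tumor RNAs of the series, and a probe was taken as theirs where its accession maps to the gene's symbol in a RefSeq table. Of the 10 genes, 9 had a probe that passed the filter on dim signals, out of 22503 genes or unnamed transcripts tested. RNA came from live CD45- cells sorted from mouse mammary tumors, that is, from cells without the leukocyte surface protein CD45. The tumors had grown after late carcinoma cells of the MMTV-PyMT model, in which the MMTV promoter drives a viral oncogene in mammary epithelium, were placed orthotopically in syngeneic C57BL/6 hosts. The donor cells were RANK+/+ or RANK-/-, RANK being the receptor activator of NF-kB, and the hosts were syngeneic females, which the methods for such implants give as 6 to 10 weeks old. Both groups therefore share the PyMT oncogene, the strain and the sort, and differ in the RANK genotype of the transplanted cells. Each array compared 1 RANK-/- RNA with 1 RANK+/+ RNA in 2 colors. The 6 arrays fall into 3 pairs of RNAs, each on technical arrays A and B, with RANK-/- in Cy5 (red) in pair 1 and in Cy3 (green) in pairs 2 and 3. The labels do not tie the 3 RNAs of a genotype to separate tumors, so the p-values measure the spread between these RNAs only.

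Cells keep Nrf2 low by binding it to Keap1, an adaptor of a Cul3 ubiquitin ligase. Electrophiles and oxidants modify Keap1, Nrf2 then enters the nucleus, and with a small Maf protein it binds antioxidant response elements near its target genes. The targets supply glutathione, use it to reduce peroxides and to conjugate reactive compounds, keep thioredoxin reduced, and handle quinones and heme. In tumor cells the program is known for buffering the oxidants that come with rapid growth.

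The core of the antioxidant response element, TGACNNNGC, was looked for on both strands of the 300 bases around each RefSeq start, 250 before it and 50 after it. Promoter windows were given for 7 of the 10 genes, and 3 of these 7 held the core: Gclm, Txnrd1 and Srxn1. Of all genes with a window, 14% held it, and 12.4% of all windows did. The core can overlap the AP-1 motif TGACTCA, and in 149 of the 32851 windows a core began with that motif. Among the members, the window of Srxn1 alone also held TGACTCA on either strand, outside its core, as did 1709 of all windows. The stretches below are from RefSeq, mouse build GRCm38.p6, 5′ to 3′ on the strand of the gene, and show the cores of the members that hold one and of Nfe2l2, the gene of Nrf2 itself. Capitals mark the core, which in the members lies on the opposite strand. The first 2 and the last run over the 250 bases before the start, and that of Srxn1 is a short stretch after the start, within the transcribed part.
Gclm, chr3:122245307-122245556, plus strand, core from -134 to -126: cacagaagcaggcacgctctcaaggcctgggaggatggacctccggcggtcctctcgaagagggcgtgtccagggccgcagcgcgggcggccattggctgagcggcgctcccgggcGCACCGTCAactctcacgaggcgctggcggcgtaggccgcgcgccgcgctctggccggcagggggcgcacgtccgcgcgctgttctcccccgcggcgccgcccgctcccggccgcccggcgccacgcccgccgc
Txnrd1, chr10:82858956-82859205, plus strand, 1 of its 3 windows, core from -92 to -84: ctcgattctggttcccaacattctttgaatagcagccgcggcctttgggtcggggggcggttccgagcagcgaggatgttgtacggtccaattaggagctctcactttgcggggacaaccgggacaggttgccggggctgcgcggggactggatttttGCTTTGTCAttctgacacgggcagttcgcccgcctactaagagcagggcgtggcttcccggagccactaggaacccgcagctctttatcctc
Srxn1, chr2:152105542-152105570, plus strand, core from 29 to 37: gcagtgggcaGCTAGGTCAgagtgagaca
Nfe2l2, chr2:75704664-75704913, minus strand, core from -240 to -232: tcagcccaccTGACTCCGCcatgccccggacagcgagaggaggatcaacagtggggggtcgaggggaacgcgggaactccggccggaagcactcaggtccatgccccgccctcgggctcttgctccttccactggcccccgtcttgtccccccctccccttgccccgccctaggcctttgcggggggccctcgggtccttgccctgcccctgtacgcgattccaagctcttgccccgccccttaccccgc
A match of these letters is a description of the window and not a binding site, and windows for Gclc, Gsta4 and Hmox1 were not analysed here.

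The targeted gene was read before the members. Tnfrsf11a, which encodes RANK, had a log2 ratio of 2.03, 1.15 and 1.76 in pairs 1, 2 and 3 (mean 1.65 ± 0.45, SD, n = 3; limma adjusted p = 1.00). All log2 ratios here put the channel labelled RANK-/- over the channel labelled RANK+/+, so the targeted gene gave the higher signal in the channel labelled RANK-/- in every pair. The sources used here do not say whether its probe lies in the deleted part of the gene, and a probe outside it checks nothing. The list of changed genes that accompanies the study carries the opposite sign on these arrays and does not state which genotype its ratio has on top. Every direction below therefore holds for the channels as labelled, and RANK-/- and RANK+/+ levels are those of the channels so labelled. Arrays A and B of a pair agreed closely across genes (r = 0.97 to 0.98), whereas the ratios of different pairs did not (r = -0.28 for pairs 1 and 2, 0.18 for 1 and 3, and -0.08 for 2 and 3), with genes as points that are not independent replicates.

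No member differed between the genotypes in the same direction in all 3 pairs. In pair 3, 7 of the 9 tested members had the higher signal in the channel labelled RANK-/-, in pair 2 it was 4 of 9, and in pair 1 it was 2 of 9. Of all 22503 genes tested, 11286 had it in pair 3, 10873 in pair 2 and 11696 in pair 1. The median ratio of the members was -0.32 in pair 1, -0.21 in pair 2 and 0.63 in pair 3, against 0.02, -0.01 and 0.00 over all genes tested. The median of their means was 0.08, but -0.17 without pair 3 and -0.13 under median centring, and that of all genes tested was 0.00 (-0.14 under median centring). With limma's moderated test on the 3 pair ratios, 0 of 9 members passed an adjusted p of 0.05 (Benjamini-Hochberg over all genes tested), and the share of all genes called was 0%. At an unadjusted p under 0.05 in limma, 0 of 9 members were called beside 2.88% of all genes. The rank product, the non-parametric test named in the study's methods, called 0 of 9 members at a proportion of false positives under 0.05, beside 0.0978% of all genes. Over all genes tested, 9.95% had the higher signal in the channel labelled RANK-/- in every pair and 9.65% had the lower one, and 0 of 9 members fell in either class. With 3 pairs an exact two-sided sign-flip test of a gene cannot give a p below 0.25.

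**Figure D1:**
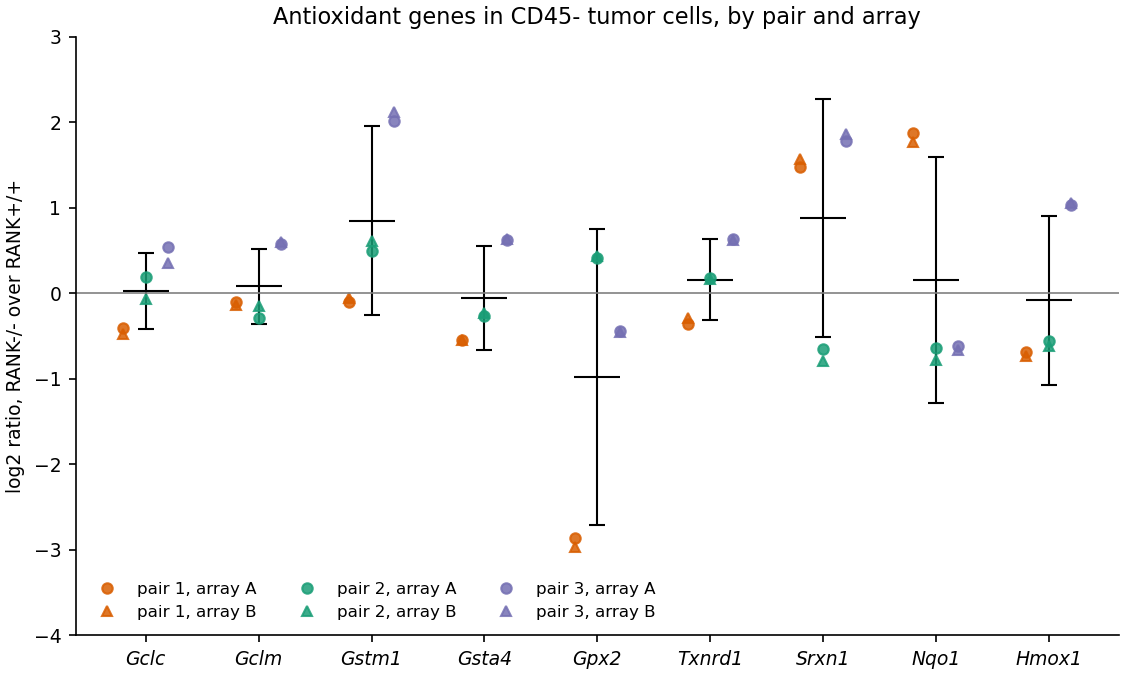
Log2 ratio of the channel labelled RANK-/- over that labelled RANK+/+ for the 9 tested members, with a circle for array A and a triangle for array B of each pair, the pair in color. The black bar and whiskers are the mean and SD over the 3 pairs. Technical arrays lie close together, and the pairs of every gene lie on both sides of 0.

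Glutathione synthesis begins with cystine uptake and the joining of glutamate to cysteine. Slc7a11, the cystine carrier of the xCT antiporter, cleared the scanner's background test on 0 of 6 arrays in either channel, and its only probe was left out of the tests. Gclc, the catalytic subunit of glutamate-cysteine ligase, had ratios of -0.44, 0.06 and 0.45 in pairs 1, 2 and 3. Its normalized level, a log2 intensity, was 9.90, 9.94 and 10.17 in the channel labelled RANK-/- and 10.34, 9.88 and 9.72 in that labelled RANK+/+. The RANK-/- values lay inside the range of the RANK+/+ values. The mean ratio was 0.02 ± 0.45 (SD, n = 3), and limma's 95% interval ran from -0.57 to 0.62. Gclm, the modifier subunit that raises the efficiency of Gclc, had ratios of -0.12, -0.21 and 0.59. Its levels were 8.66, 8.06 and 8.90 against 8.78, 8.28 and 8.31. Only in pair 3 was the RANK-/- level the higher of the pair, and the groups overlapped. The mean was 0.08 ± 0.44 (SD, n = 3; limma interval -0.51 to 0.67). Both ligase subunits thus had their highest ratio in pair 3 and had means close to 0, with intervals that reached 0.62 and 0.67 at their upper ends.

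The glutathione transferases join glutathione to reactive compounds. Gstm1, a mu-class transferase, had the highest ratio of the members in pair 3, with values of -0.08, 0.55 and 2.07 and a mean of 0.85 ± 1.10 (SD, n = 3; limma interval -0.38 to 2.07). Its levels were 10.57, 10.56 and 11.65 in RANK-/- and 10.65, 10.01 and 9.58 in RANK+/+. The ratio of pair 3, a 4.20-fold difference, joined the highest RANK-/- level with the lowest RANK+/+ level, while the groups overlapped through pair 1. The mean was 0.24 without pair 3 and 1.31 without pair 1. The dimmer probe of the gene gave 0.05, 0.21 and 1.80, so it differed in sign from the brighter probe in pair 1 and was alike in pair 3. Mu-class genes are close in sequence and the probe sequences were not used here, so how far the Gstm1 probe also reads its relatives was not tested. Gsta4, an alpha-class transferase that clears lipid aldehydes such as 4-hydroxynonenal, had ratios of -0.55, -0.25 and 0.63 with a mean of -0.06 ± 0.61 (SD, n = 3; limma interval -0.80 to 0.69). Its probe was printed 10 times on each array, and 8 to 10 of these spots were used. They ran from -0.69 to -0.45 on the arrays of pair 1, from -0.42 to -0.04 in pair 2 and from 0.48 to 0.81 in pair 3, so every used spot had the sign of its pair. Its levels were 9.84, 9.38 and 9.92 in RANK-/-, between the 9.30 and 10.39 of RANK+/+.

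Gpx2, a selenium-containing glutathione peroxidase of epithelial cells, had the lowest ratio of any member. The values were -2.92, 0.42 and -0.45 (mean -0.98 ± 1.73, SD, n = 3; limma interval -2.85 to 0.89). In pair 1 the signal was 7.55-fold lower in the channel labelled RANK-/-. The RANK+/+ level of that pair, 11.46, stood above the other 5 values, which were 8.55, 9.53 and 8.12 in RANK-/- and 9.11 and 8.57 in RANK+/+. The mean was -0.01 without pair 1, -1.68 without pair 2 and -1.25 without pair 3.

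**Figure D2:**
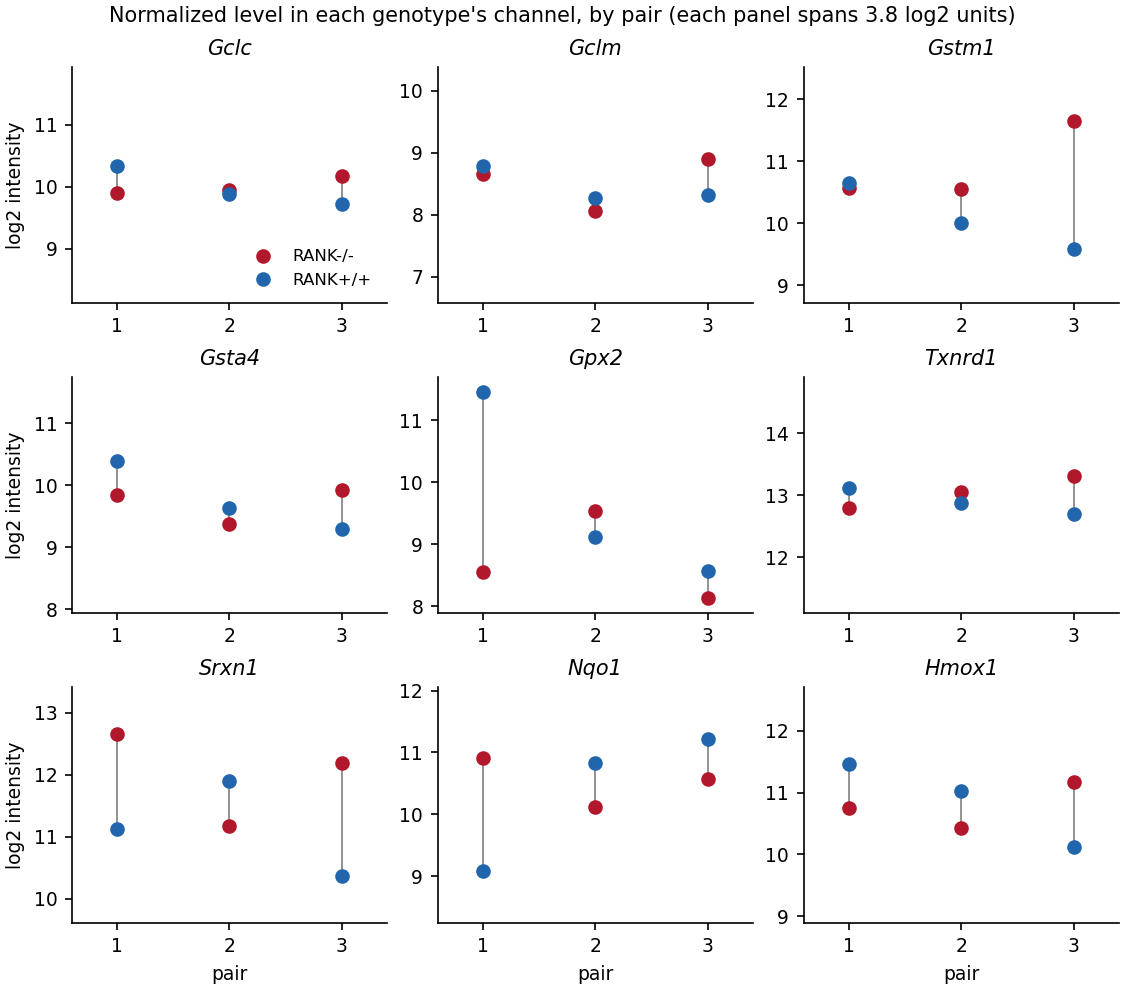
Normalized level (log2 intensity) of each tested member in the channel labelled RANK-/- (red) and RANK+/+ (blue) in pairs 1, 2 and 3, with a grey line joining the 2 channels of a pair. Levels of different probes are not comparable. The groups overlap in every panel, and the RANK+/+ level of pair 1 stands apart for Gpx2 (11.46) and Nqo1 (9.08).

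The thioredoxin arm reduces protein disulfides and peroxiredoxins. Txnrd1, the cytosolic thioredoxin reductase, had ratios of -0.32, 0.17 and 0.63 (mean 0.16 ± 0.47, SD, n = 3; limma interval -0.46 to 0.78). Its RANK-/- levels were 12.80, 13.05 and 13.32, and its RANK+/+ levels were 13.12, 12.88 and 12.69, so the genotypes ran in opposite orders over the pairs. Srxn1, sulfiredoxin, which restores overoxidized peroxiredoxins, had ratios of 1.53, -0.72 and 1.82. The mean of 0.88 ± 1.39 (SD, n = 3; limma interval -0.64 to 2.40) was the highest of the members. Levels were 12.66, 11.17 and 12.18 in RANK-/- and 11.13, 11.89 and 10.36 in RANK+/+. In pairs 1 and 3 the RANK-/- level was higher by 2.88-fold and 3.54-fold, and in pair 2 it was the lower of the pair, where the lowest RANK-/- level met the highest RANK+/+ level. The mean was 0.55 without pair 1, 0.40 without pair 3 and 1.68 without pair 2, and the last did not pass in limma either (adjusted p = 0.55, with 0.36 to 1.00 over all alternatives).

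Among the genes for quinones and heme, Nqo1 differed in sign from most members in pairs 1 and 3. Nqo1, which reduces quinones and is a usual reporter of Nrf2 activity, had ratios of 1.82, -0.71 and -0.64 (mean 0.16 ± 1.44, SD, n = 3; limma interval -1.41 to 1.73). Its levels were 10.90, 10.12 and 10.58 in RANK-/- and 9.08, 10.83 and 11.22 in RANK+/+. The RANK+/+ level of pair 1 was the lowest of the 6 values, and in the other pairs RANK+/+ was the higher channel. Pair 1 is also the only pair with RANK-/- in Cy5, so pair 1 and dye cannot be told apart for any member. Among these are Nqo1 and Gpx2, whose pair 1 stands apart. Hmox1, heme oxygenase, which breaks heme down to biliverdin, had ratios of -0.71, -0.59 and 1.05 (mean -0.09 ± 0.98, SD, n = 3; limma interval -1.19 to 1.02). Its levels were 10.76, 10.43 and 11.18 in RANK-/-, within the 10.13 to 11.47 of RANK+/+. The dimmer probe gave -1.02, -0.14 and 0.62, the same signs in each pair.

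The ratios of the members varied far more between pairs than between technical arrays. The SD of the ratio over the pairs was 0.44 to 1.73, and its median over the 9 members was 0.98, against a median of 0.33 over all genes tested. A wide spread was not particular to the members. Among the lists described below, the median SD was 1.48 for epithelial, 1.00 for fibroblast and 0.89 for basal markers. It was 0.86 for Atf4 targets, 0.47 for the wider pathway and 0.37 for endothelial markers. The SD between arrays A and B of a pair was far smaller, from 0.02 for Gsta4 to 0.13 for Gclc. Its median was 0.06, against 0.06 over all genes. Arrays A and B had the same dyes, so this SD leaves out any dye effect. Pair 1 had the opposite dyes to pairs 2 and 3, so the spread between pairs can include one. For Gclc the spread between pairs was 3.35 times that between arrays A and B, and for Gpx2 it was 38.7 times. Each of the 9 tested members cleared the background test in both channels on 6 of 6 arrays. Levels were not separated by genotype for any of the 9, while 3.66% of all genes had all 3 RANK-/- levels above the RANK+/+ levels and 3.78% had them all below. In 6 of the 9 members the RANK+/+ levels were spread more widely over the pairs than the RANK-/- levels, beside 50.7% of all genes.

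**Figure D3:**
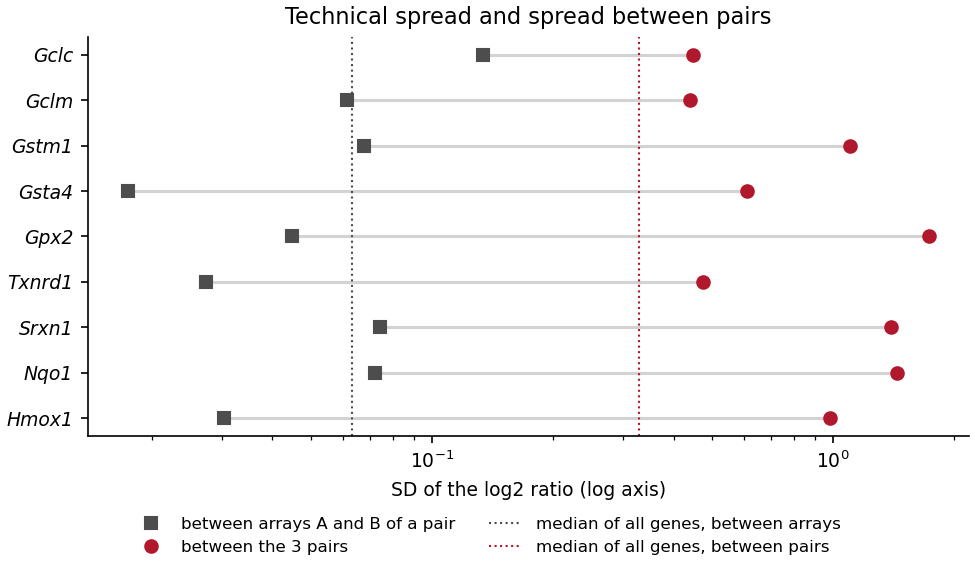
SD of the log2 ratio between arrays A and B of a pair (grey squares, pooled over pairs) and between the 3 pairs (red circles) for the 9 tested members, on a log axis. Dotted lines are the medians over all genes tested, 0.06 and 0.33. Each member varied more between pairs than between technical arrays.

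The order of the pairs was shared by several members. Gclc, Gsta4, Gstm1, Hmox1 and Txnrd1 had their lowest ratio in pair 1 and their highest in pair 3, which was so for 15.0% of all genes. Gclm and Srxn1 also had their highest ratio in pair 3, but their lowest in pair 2 (16.1% of all genes). Gpx2 was highest in pair 2 and lowest in pair 1 (17.5%), and Nqo1 was highest in pair 1 and lowest in pair 2 (20.8%). By sign, Gclm, Gsta4 and Hmox1 were below 0 in pairs 1 and 2 and above 0 in pair 3, a pattern of 7.90% of all genes. Gclc, Gstm1 and Txnrd1 were below 0 in pair 1 alone (13.5% of all genes), Srxn1 was below 0 in pair 2 alone (18.8%), Nqo1 was above 0 in pair 1 alone (15.3%) and Gpx2 in pair 2 alone (17.0%). Where pair 1 alone differed in sign, as for Gclc, Gstm1, Txnrd1 and Nqo1, pair and dye cannot be told apart.

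The regulators were measured as well, and all 10 listed were tested. Nfe2l2, which encodes Nrf2 and whose promoter core is printed above, had ratios of -0.91, 0.36 and 1.25 (mean 0.23 ± 1.08, SD, n = 3), the same order over the pairs as Gclc, Txnrd1 and Hmox1. Keap1, its inhibitor, had -0.07, 0.31 and 0.37, and Cul3, the ligase scaffold, had 0.03, 0.37 and -0.06. Sqstm1, the autophagy receptor that can draw Keap1 away, had -0.22, 0.59 and 0.96. Among the Maf partners, Mafg had -0.02, -0.25 and 0.53, Mafk had 0.27, -0.42 and 0.66, and Maff had 0.87, -0.84 and 0.92. Bach1, a repressor at the same elements, had 0.21, -0.52 and 0.23, and the related activator Nfe2l1 had -0.37, 0.12 and 0.46. Btrc, a substrate receptor of another Nrf2 ligase, was the only regulator above 0 in every pair, with 0.92, 0.12 and 0.23. In pair 3, 9 of the 10 regulators were above 0, beside 11286 of all 22503 genes. In limma 0 of 10 passed, beside 0% of all genes.

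In the wider pathway, 105 genes other than the members were listed, and 100 were tested. Of these 100, 0 passed limma's adjusted p of 0.05, beside 0% of all genes. In every pair 12 were above 0 and 10 below 0, beside 9.95% and 9.65% of all genes, shares that apply to each list below. In limma 7 had an unadjusted p under 0.05, beside 2.88% of all genes. The median ratio of the 100 was -0.01 in pair 1, -0.08 in pair 2 and 0.32 in pair 3. In pair 3, where the members were also high, 72 of the 100 were above 0, beside 11286 of all 22503 genes. None of the genes named in the lists below passed the test, and their values are a description.

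Of 10 tested genes of glutathione synthesis and recycling, 0 were above 0 and 2 below 0 in every pair. These were Gsr, the reductase that regenerates glutathione, with -0.37, -0.16 and -0.21, and Ggt1, which splits extracellular glutathione, with -0.41, -1.003 and -0.03. Among the 5 tested glutathione peroxidases, which did not include the member Gpx2, Gpx8, an enzyme of the endoplasmic reticulum, was below 0 in every pair with -1.09, -0.25 and -0.38. Of the 19 tested transferases beside the members, 4 were above 0 and 1 was below 0 in every pair, beside 9.95% and 9.65% of all genes. Gstt1 had 0.43, 1.36 and 0.36, and Gstm2, a neighbor in class of Gstm1, had 0.05, 0.32 and 1.68, with its highest ratio in pair 3 as for Gstm1. Gstt2 had -0.20, -2.26 and -0.02.

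Among 14 tested thioredoxins and peroxiredoxins, 1 was above 0 and 2 below 0 in every pair. Txnip, the inhibitor of thioredoxin, had -1.003, -0.67 and -0.91, with an SD of 0.17 that was smaller than that of any member. Txnrd2, the mitochondrial reductase, had 0.37, 0.42 and 0.66, and Txnrd3 had -0.06, -0.40 and -0.80. The 7 enzymes of NADPH supply held 2 genes above and 1 below 0 in every pair. Me1, malic enzyme, had 0.33, 0.00 and 1.01, Taldo1 had 0.27, 0.05 and 0.63, and Pgls had -0.42, -0.17 and -0.19.

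Of 7 tested genes of heme and iron, Fth1, the ferritin heavy chain, was above 0 in every pair with 0.74, 0.84 and 0.25. Of 14 tested genes of detoxification and export, 1 was above and 2 below 0 throughout. Ephx1, microsomal epoxide hydrolase, had 0.63, 0.55 and 0.41, whereas Akr1c13 had -0.28, -0.69 and -0.89 and the exporter Abcc3 had -0.25, -1.12 and -0.39. Sod3, extracellular superoxide dismutase, had the highest mean of the wider pathway, with 0.92, 1.23 and 2.64. Of 11 tested Atf4 targets, a stress program that shares Slc7a11 with Nrf2, Atf4 itself had 0.42, 0.05 and 0.61 and Shmt2 had -0.39, -0.05 and -0.61.

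The ratios of markers of the cell types that a CD45- sort can hold also differed between pairs. Epcam, Krt8 and Krt18, which define epithelium, cleared the background test on 6 of 6 arrays for both genotypes. Ptprc, which encodes CD45, did so on 5 and 4 of 6 arrays in the channels labelled RANK-/- and RANK+/+. Of the other leukocyte markers, Cd52 and Coro1a did so on 6 and 6, Laptm5 and Rac2 on 6 and 4, and Cd53 on 4 and 2. No unsorted RNA was on these arrays, so how far the sort removed CD45+ cells was not tested. The 7 epithelial markers had medians of -0.30, -0.67 and 0.93 over pairs 1 to 3, and their summed level was 128971 to 422299 in RANK-/- and 154527 to 255044 in RANK+/+. The 8 fibroblast markers had medians of 0.36, 0.57 and 1.97, and 8 of 8 were above 0 in pair 3, beside 11286 of all 22503 genes. Their summed level was 142195 to 231755 in RANK-/- and 50985 to 145341 in RANK+/+. The median was highest in pair 3 for the members, for the fibroblast, epithelial, endothelial and erythroid markers and for dissociation stress. For the macrophage, leukocyte and basal markers it was highest in pair 2. Macrophages also express Hmox1. The 8 macrophage markers had medians of -0.27, 0.25 and 0.16, with sums of 2062 to 2973 and 1682 to 4141, and the 5 tested leukocyte markers had -0.92, 0.17 and 0.15, with sums of 726 to 1591 and 456 to 2444. Endothelial markers had medians of -0.00, -0.25 and 0.55, and the 4 tested erythroid ones -0.75, -0.32 and 0.59. The 7 basal markers had medians of 0.00, 0.02 and -0.01 but differed among themselves. In pair 1, Krt14, Krt5 and Krt17 were at -1.81, -1.41 and -1.66, while Oxtr, Acta2, Trp63 and Myh11 were at 1.84, 0.89, 0.28 and 0.00. The summed level of the 7 was lower in every channel labelled RANK-/-, 27737 to 31764 against 34026 to 53133. The 10 tested genes of dissociation stress had medians of 0.28, 0.10 and 0.80, and their summed level was higher in every channel labelled RANK-/-, 307434 to 392567 against 234669 to 294869. The sums of these 2 lists therefore did not overlap between the genotypes, while those of the other lists did. A sum adds linear intensities, so the brightest genes of a list weigh most in it. The basal median ratios were near 0 in every pair. Gene by gene, levels overlapped for 6 of the 7 basal markers and 9 of the 10 stress genes. They did so for 9 of the 9 tested members and for 20829 of all 22503 genes. Of the fat cell markers, Adipoq, Plin1, Cidec and Lep cleared the background test on 0 of 6 arrays, and Fabp4, which endothelial cells and macrophages also express, cleared it on 6 of 6 with ratios of 0.02, 0.19 and 0.59. The part of these cell types and of dissociation stress in the members' ratios was not tested. In RNA of a whole fraction, fewer cells of a type and less RNA per cell cannot be told apart.

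**Figure D4:**
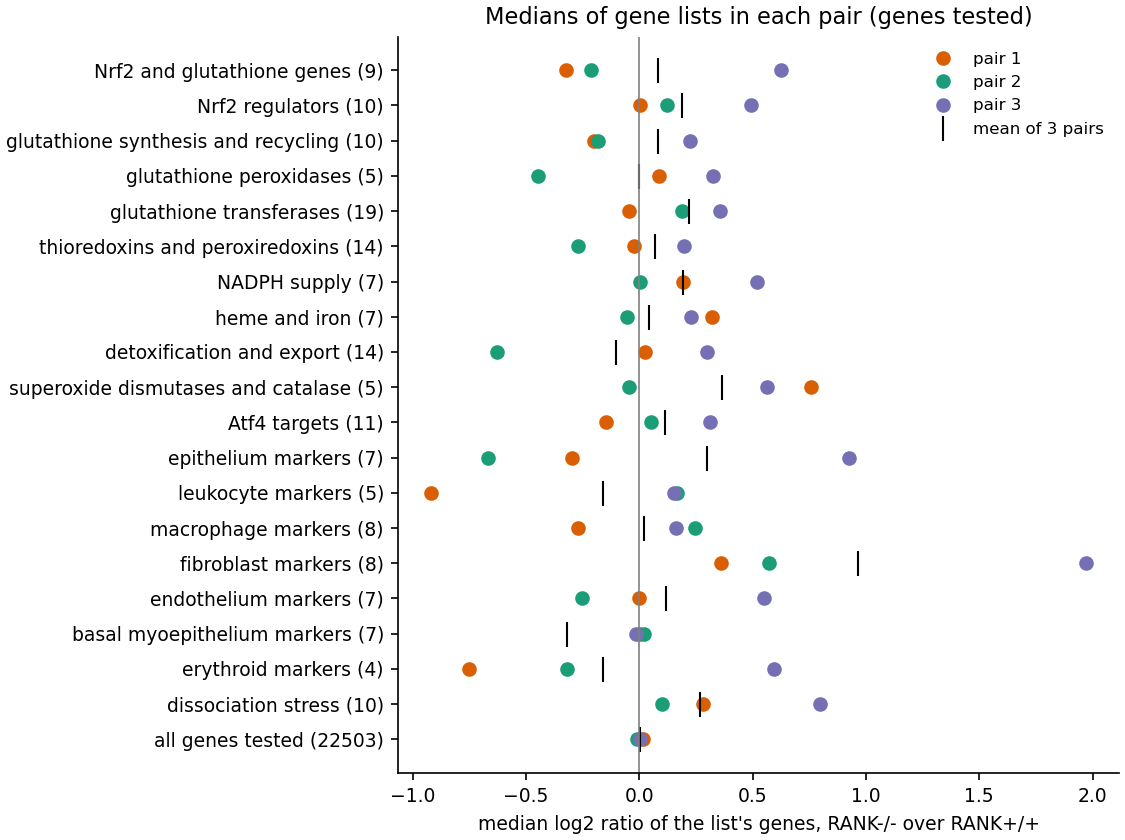
Median log2 ratio of the tested genes of each list in pairs 1, 2 and 3 (colored points) and of their means over the pairs (black bar), with the number of genes tested in parentheses. The members' medians are -0.32, -0.21 and 0.63, the fibroblast markers' median reaches 1.97 in pair 3, and the medians of all genes tested lie near 0.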

How the data were processed

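RNA of sorted CD45- tumor cells was hybridized by the authors to 2-color SurePrint G3 Mouse arrays and extracted with Agilent Feature Extraction 10.7.3.1, per the labels. The deposited scanner tables hold median spot and background intensity per channel, not normalized, and processed intensity. The series table deposited beside them gives normalized log2 ratios. It states neither scale nor direction, and its values followed the scanner ratios as RANK-/- over RANK+/+ on all 6 arrays, with column medians from -0.008 to 0.007. The last 2 inputs served as alternatives. Arrays A and B had the same dyes per the labels, although the methods describe dye swaps.

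Median intensities were corrected with normexp (offset 50), normalized by loess and Aquantile in limma 3.58.1 (R 4.3.3), with control and outlier spots left out. Arrays A and B were averaged (the other array alone where a spot was an outlier). A probe was kept if, in the channel of 1 genotype, Feature Extraction marked it as clearly brighter than background on A and B in 2 or more pairs, which left 30231 of 55681, and the brightest probe stood for a gene. RefSeq named 28026 probes by accession, and the grid names build mm9, so no probe positions are given. The positions printed with the promoter stretches are those of RefSeq on GRCm38.p6. limma (intercept only, two-sided) was fitted to the 3 pair ratios with Benjamini-Hochberg adjustment. The rank product used 500 seeded draws. The scripts were tested on simulated data.

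Members, lists, tests and the rule for named genes were chosen with earlier results of these data known. The rule named all members, Tnfrsf11a, every regulator and, per list, up to 2 genes at each end with the same sign in all 3 pairs. The same RNAs of a number share an array, so each ratio is paired. Deviations of same-numbered channels from their group means correlated at -0.03, -0.22 and -0.04. With 6 arrays precision is limited, and 87 to 105.5 was the median Cy5 signal against a background of 63 to 71. No spot was saturated (0 on every array).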

Additional observations from a re-analysis of the deposited data

How the results depend on the processing

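Across 19 alternatives, 0 members passed limma's adjusted p of 0.05 in any, 174 single-gene values kept their direction and their side of the threshold, 14 changed sign, and 11 counts of genes or members moved. The members' median turned to -0.13 under median centring and to -0.17 without pair 3, and was 0.03 to 0.23 in the others. Genes past the limma threshold went from 0 to 13 with 6 arrays and the pair as a random block and to 298 with 6 arrays taken as 6 separate replicates, which counts technical arrays as replicates. In the latter the rank product called 2 members, Srxn1 higher and Gpx2 lower, beside 3.23% of all genes, and Tnfrsf11a passed in both (adjusted p = 0.0197 and 0.0111 in limma). With no replicate block, that is, channels as 3 and 3 samples, 0 genes and 0 members passed, and 828 genes had an unadjusted p under 0.05. The dye term gave 0 genes as well. With it the estimates were 0.57 for Nqo1 and -1.47 for Gpx2. In that fit pair 1 is alone in its dye arrangement and weighs as much as pairs 2 and 3 together. The spread then comes from pairs 2 and 3 only. At an unadjusted p under 0.05, limma called Gstm1 and Srxn1 with the random block, beside 6.07% of all genes, and Gstm1 with 6 separate replicates (17.0%). It called Nqo1 without pair 1 (4.02%), Srxn1 without pair 2 (8.34%) and Hmox1 without pair 3 (2.05%). Median centring put the median of all genes at -0.14, with 1 member above 0 (Gstm1) and 2 below 0 (Gclc, Txnrd1) in every pair. Under it Nqo1 came to -0.0541, Gclc to -0.17, Gclm to -0.0785 and Txnrd1 to -0.13, which relative to that median are 0.08, -0.03, 0.06 and 0.01. With no filter on dim probes 1 member was below 0 in every pair, the dim Slc7a11. The shares of all genes with the same sign in every pair are not given for median centring or for no filter, so these counts are a description. Gclc turned to -0.0623 with array B alone and to -0.0929 with the dye term. With a pair left out, more genes have 1 sign in all pairs left. Above 0, the 9.95% of all genes above 0 in every pair are joined by others. These add 13.5% without pair 1, 18.8% without pair 2 or 7.89% without pair 3. Below 0, 9.65% are joined by 15.3%, 17.0% or 7.90%. Beside these shares, leaving out each replicate (pair) in turn gave 0 to 3 members above 0 and 1 to 3 below 0 in all pairs left. The means then ran from -0.67 (without pair 1) to 0.59 for Nqo1, -0.19 (without pair 3) to 0.26 for Gclc, -0.17 (without pair 3) to 0.23 for Gclm, -0.40 to 0.19 (without pair 1) for Gsta4, 0.04 without pair 2, -0.65 to 0.23 (without pair 1) for Hmox1, 0.17 without pair 2, and -0.0749 (without pair 3) to 0.40 for Txnrd1. Gstm1, Srxn1 and Gpx2 kept their sign in all 19, with means of 0.24 to 1.31, 0.40 to 1.68 and -1.68 to -0.01. The cause of these shifts was not tested.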
